A study of Mus musculus with 15 samples.

Results

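In sorted haematopoietic stem cells (HSC) carrying a knock-in allele of the kinase mTOR, 9597 regions of chromatin had an ATAC-seq peak that neither the mTOR-deleted cells nor the wild-type cells had. These KI-alone regions were found by merging the 3 deposited peak lists wherever peaks overlapped or touched, on chromosomes 1 to 19, X and Y. The merge gave 32764 regions, of which a region was KI-alone when it held a KI peak and no KO or WT peak. KI-alone regions made up 29.3% of all merged regions and 34.4% of the 27907 regions with a KI peak. Each of them held exactly 1 KI peak, and together they covered 3.46 Mb. The regions were selected on the presence of peaks in the 3 lists, and so their KI status and KI scores are given as a description.

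The study set 3 genotypes side by side in adult mice, all treated with poly(I:C). KI mice were Mx1-Cre+/-;mTORflox/knockin, KO mice were Mx1-Cre+/-;mTORflox/flox, and WT control mice were Mx1-Cre-/-;mTORflox/flox. There was 1 ATAC-seq library per genotype, made from 50000 sorted cells with transposition for 30 min at 37 °C. The 12 RNA samples of the series were not analysed here. Cre was present in KI and KO mice and not in WT mice, and every genotype had at least 1 floxed allele. The labels do not say what the knock-in changes. The WT and KO libraries carry a label of re-analysis and the KI library does not. The labels do not say whether the KI library was made or processed apart. If it was, effects of that and of the KI genotype cannot be told apart. No genotype had a second library, so no difference between genotypes has a replicate check, and no p-value is given.

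ATAC-seq marks open chromatin, because a transposase inserts sequencing adapters where DNA is not packed against nucleosomes. Open regions lie at promoters, where transcription starts, and at distal elements, which can lie in introns or between genes and vary more between cell types than promoters do. mTOR is the kinase at the core of mTORC1 and mTORC2, which couple nutrients and growth factors to protein synthesis, survival and growth, and in HSC its activity is linked to the exit from quiescence. The Mx1 promoter that drives Cre responds to interferon, which poly(I:C) induces in the whole animal and not in HSC alone.

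The promoter sequences at the 4 strongest KI-alone regions that lay over a transcription start in the table of promoters are printed here. Each line gives the 250 bases before the annotated start, 5′ to 3′ on the gene's own strand, from RefSeq on GRCm38.p6, the assembly behind mm10. Capitals mark matches to any of the 11 short motifs searched on both strands, which are spelled out with the promoter results. Nol7 encodes a nucleolar protein (chr13:43398126-43398375, plus strand). Ap1g2 encodes a gamma subunit of an adaptor complex of vesicle transport (chr14:55106594-55106843, minus strand). Bmp8a encodes a bone morphogenetic protein ligand (chr4:123343253-123343502, minus strand). Mettl22 encodes a methyltransferase-like protein (chr16:8470563-8470812, plus strand).
Nol7: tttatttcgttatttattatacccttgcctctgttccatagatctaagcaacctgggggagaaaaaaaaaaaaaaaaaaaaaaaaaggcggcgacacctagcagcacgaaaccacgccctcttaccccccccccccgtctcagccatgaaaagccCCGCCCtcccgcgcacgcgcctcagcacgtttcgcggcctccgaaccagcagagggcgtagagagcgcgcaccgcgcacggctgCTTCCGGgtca
Ap1g2: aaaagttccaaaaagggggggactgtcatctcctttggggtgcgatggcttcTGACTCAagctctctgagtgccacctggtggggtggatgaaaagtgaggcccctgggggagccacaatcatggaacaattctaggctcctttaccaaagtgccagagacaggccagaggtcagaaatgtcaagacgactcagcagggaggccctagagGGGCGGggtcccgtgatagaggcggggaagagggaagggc
Bmp8a: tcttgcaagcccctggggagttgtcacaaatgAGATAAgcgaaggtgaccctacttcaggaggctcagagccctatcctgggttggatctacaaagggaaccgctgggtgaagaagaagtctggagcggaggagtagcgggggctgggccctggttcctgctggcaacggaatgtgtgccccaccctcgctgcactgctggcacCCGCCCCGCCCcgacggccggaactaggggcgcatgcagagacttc
Mettl22: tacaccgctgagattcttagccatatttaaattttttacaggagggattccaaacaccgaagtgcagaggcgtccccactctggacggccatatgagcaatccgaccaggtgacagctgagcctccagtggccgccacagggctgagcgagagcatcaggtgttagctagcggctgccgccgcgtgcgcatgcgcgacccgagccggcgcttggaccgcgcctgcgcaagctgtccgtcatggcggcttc
In Nol7 the capitals are a GC box and an ETS motif, both read on the opposite strand. In Ap1g2 they are a palindromic AP-1 motif and a GC box, and in Bmp8a a GATA motif and a pair of overlapping GC boxes. The KI-alone regions cover all of the Ap1g2 and Mettl22 sequences and only the part of those of Nol7 and Bmp8a nearer the start. The Bmp8a region ends at chr4:123343367, and its GATA motif lies outside it. The Mettl22 sequence held none of the 11 motifs. The GC content of the 4 sequences was 56% in Nol7, 57.2% in Ap1g2, 62% in Bmp8a and 60.8% in Mettl22.

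The KI library had the longest peak list. It held 28391 peaks covering 16.5 Mb, against 19189 peaks and 11.5 Mb in KO and 17316 peaks and 11.6 Mb in WT, and read depth is unknown. The 9597 KI-alone regions stood against 2619 regions with a KO peak alone and 1808 with a WT peak alone. When each list was limited to its 17316 highest-scoring peaks, 2606 regions were KI-alone, against 3147 KO-alone and 3126 WT-alone regions. The lowest scores kept then differed, at 77.95 in KI, 55.15 in KO and 50.01 in WT. Of those 2606 regions, 2384 were among the 9597. With a score of at least 75 asked of every list, the counts were 5718 KI-alone, 1018 KO-alone and 788 WT-alone regions, and 2814 of the 5718 were among the 9597. The KI-alone class was thus the largest of the 3 on the whole lists and with that score, and the smallest at equal list size.

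The score is the value the authors deposited for each peak. It was used to cut each list at equal list size and at a score of at least 75. Otherwise it serves here to describe and rank peaks within the KI list. KI-alone regions were weak peaks of that list. Their scores ran between 50 and 209.53 with a median of 64.22, and the KI regions shared with KO or WT had a median of 135.22. Of the 9597, 1077 (11.2%) scored above the KI list median of 93.3. The strongest of them ranked 5109 among the 28391 KI peaks. Among regions with a KI peak, 73.5% of the lowest score class (50 to 61.69) were KI-alone, then 59.8%, 32.6%, 5.97% and 0.125% in the 4 higher classes. The regions are described below in 2 sets, the 4794 above their own median (scores of 64.23 and more) and the 4803 at or below it, with 9 regions tied at the median itself.

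Scores were continuous around the median. The region just above the median lay in the body of Atp8a1 (64.23), which encodes a phospholipid flippase, and the next lay at an end of Faxc (64.22), 1 of the 9 regions at the median. At the edge of the overlap rule, a KI-alone region on chromosome 2 near Ttl lay 2 bp from the nearest KO or WT peak. The smallest overlap that kept a KI peak out was 1 bp, on chromosome 15. Most KI-alone regions were far from that edge. The median distance to the nearest KO or WT peak was 18274 bp, and 504 regions (5.25%) had such a peak within 500 bp and 1619 (16.9%) within 5 kb. Regions above the median had one within 5 kb in 14.4% (13.4 to 15.4) of cases and lower regions in 19.3% (18.2 to 20.5), with Wilson 95% intervals in parentheses here and below that cover counting error over regions, genes or promoters and nothing else.

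**Figure D1:**
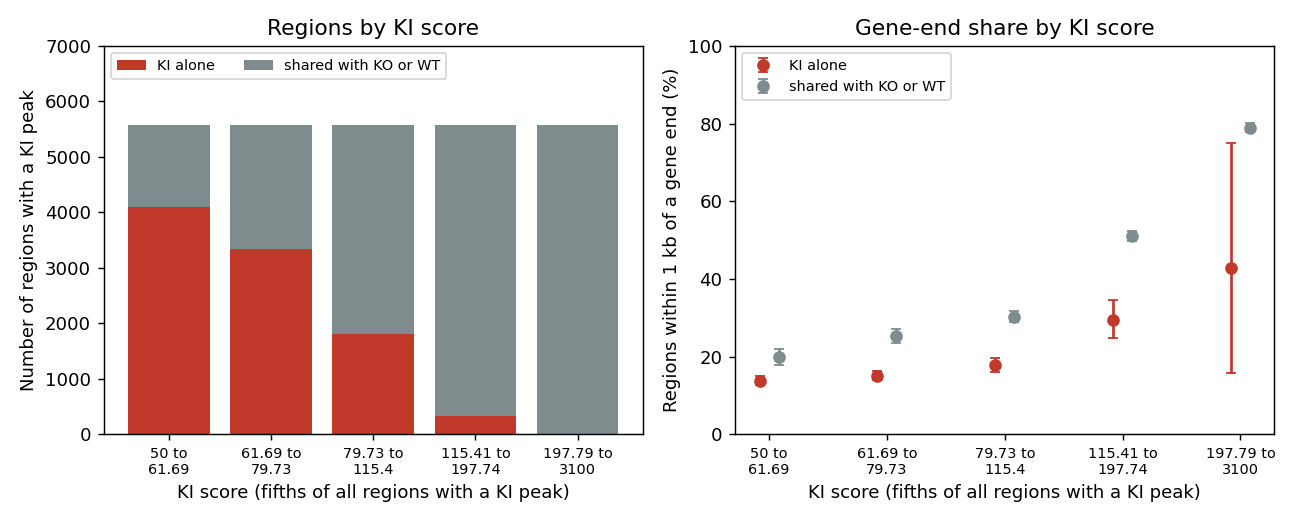
Regions with a KI peak in 5 classes of KI score. The left panel counts KI-alone regions (red) and regions shared with KO or WT (grey), and the right panel gives the percentage within 1 kb of a gene end with 95% Wilson intervals. KI-alone regions made up 73.5% of the lowest class and 0.125% of the highest, and their gene-end share was lower than that of shared regions in each class, with intervals that overlap in none.

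KI-alone regions were mostly distal. Of the 9597, 1495 (15.6%, 14.9 to 16.3) lay within 1 kb of an annotated gene end, 4180 (43.6%) in a gene body farther in, and 3922 (40.9%) between genes. The same gene-end share was 49.6% (48.9 to 50.3) among KI regions shared with KO or WT and 61.2% (60.3 to 62.0) among regions of all 3 lists. KO-alone regions (12.8%, 11.6 to 14.1) and WT-alone regions (17.0%, 15.3 to 18.8) were distal too, so that a low gene-end share was common to the regions found in a single list. Within a score class the difference remained. In the lowest class 13.8% (12.8 to 14.9) of KI-alone and 19.9% (17.9 to 22) of shared regions were at gene ends, and in the class of 115.41 to 197.74 they were 29.4% (24.8 to 34.5) and 51.0% (49.7 to 52.4). Width enters this rule, and the median width was 330 bp for KI-alone and 744 bp for shared regions. Placed by midpoint alone, 14.4% (13.7 to 15.1) of KI-alone and 47.3% (46.6 to 48.0) of shared regions were within 1 kb of one.

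Seen from the other side, 14.1% (13.5 to 14.8) of the KI regions at gene ends were KI-alone, and 46.8% (46.0 to 47.5) of those away from them. Gene-end placement differed a little with score, at 17.2% (16.1 to 18.3) above the median and 14% (13 to 15) below it. The gene-end table gives no strand. Where promoter coordinates were given, 901 of 1462 gene-end regions (61.6%) lay within 1 kb of a transcription start. Over all KI-alone regions on those chromosomes it was 1146 of 9319 (12.3%). Some regions placed away from gene ends were thus near an annotated start. No gene lay within 50 kb of 1211 regions (12.6%).

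The strongest KI-alone regions away from gene ends lay at genes of differing functions. The highest of all was in the body of Gcnt2 (209.53, chr13:40944102-40944382), which encodes the enzyme that branches the I blood group antigen. Next were a region 8283 bp from Niban2 (209.51, chr2:32867265-32867851) and 1 in Mbnl1 (209.43, chr3:60493592-60494103), which encodes a splicing regulator. The Mbnl1 region lay 616 bp from a KO or WT peak and the Niban2 region 14575 bp. Next was Klf1 (207.09, chr8:84903106-84903652), the erythroid transcription factor, 1124 bp into the gene from its start. The Klf1 region was the single KI region assigned to that gene, and the KO and WT lists had none there. The other 6 of the 10 strongest such regions belonged to Spry1 (192.07), an inhibitor of growth factor receptor signalling, Apob (191.43), the structural protein of lipoproteins made in liver and gut, Ankrd13a (191.33), Tasp1 (185.07), the protease that cleaves the methyltransferase KMT2A, Agpat4 (182.98), a lysophosphatidic acid acyltransferase, and Tent5c (178.29), a poly(A) polymerase. The Spry1, Apob, Ankrd13a and Tent5c regions were intergenic, between 7605 and 28607 bp from the gene. Distances to a KO or WT peak ran from 616 bp for Mbnl1 to 145787 bp for Tasp1.

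**Figure D2:**
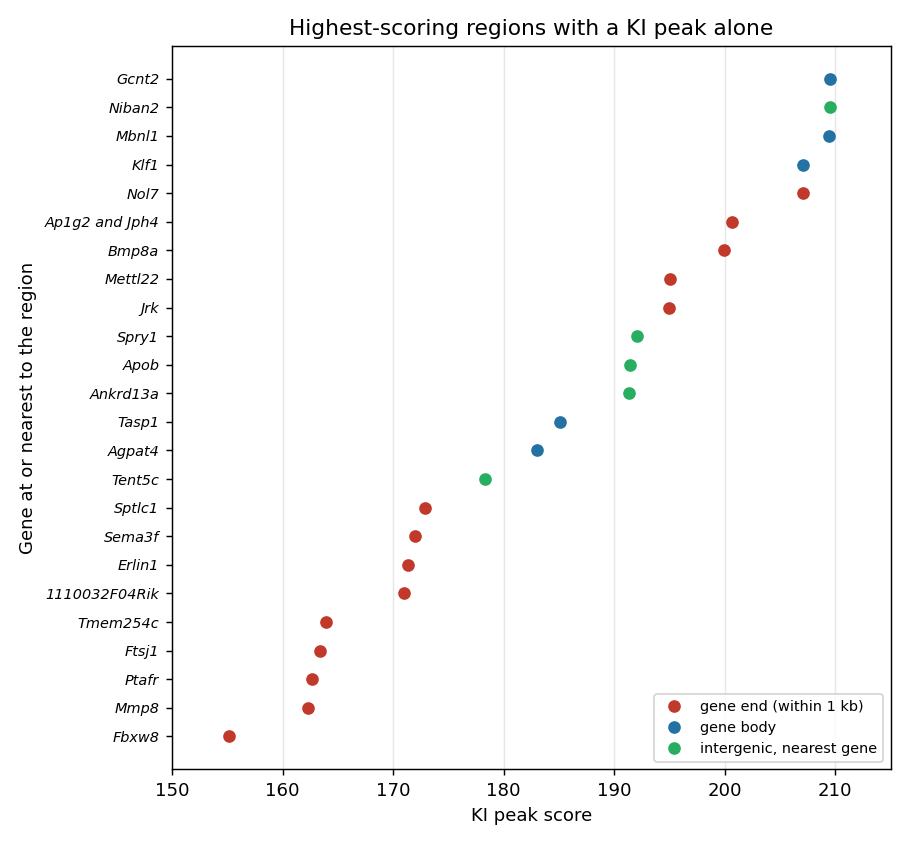
KI peak scores of 14 of the 15 highest-scoring KI-alone regions at a gene end and the 10 highest-scoring away from one, each labelled by its gene, with the score in the units of the deposited list. All lie between 155.18 and 209.53, above the median of 64.22 for KI-alone regions.

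At gene ends the strongest regions were those of Nol7 (207.08, chr13:43398203-43398863), the start of Ap1g2, also within 1 kb of an end of Jph4 (200.68, chr14:55106070-55106911), Bmp8a (199.98, chr4:123342815-123343367) and Mettl22 (195.04, chr16:8470557-8471350), whose promoters are printed above. Jrk (194.99) followed. Sptlc1 (172.9) encodes a subunit of serine palmitoyltransferase, the first enzyme of sphingolipid synthesis. Sema3f (171.95) encodes a secreted guidance cue and Erlin1 (171.32) a protein of lipid rafts in the endoplasmic reticulum. The others named here were 1110032F04Rik (170.96), Tmem254c (163.95), Ftsj1 (163.42), a tRNA methyltransferase, Ptafr (162.7), the receptor for platelet-activating factor, Mmp8 (162.33), the neutrophil collagenase, and Fbxw8 (155.18), a subunit of a ubiquitin ligase. The Mmp8 region lay at the far end of the gene, 8755 bp from its start. The nearest KO or WT peak to the regions named was between 4964 bp (Mmp8) and 138680 bp (Tmem254c) away.

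Among lower-scoring regions, the 5 strongest at gene ends were at Faxc, Gbp4 and Cecr2 (64.22 each), Tsc22d3 (64.16) and Pdgfc (64.09). Gbp4 encodes an interferon-induced guanylate-binding protein, Tsc22d3 the glucocorticoid-induced leucine zipper and Pdgfc a growth factor ligand. The Pdgfc region lay 36 bp from a KO or WT peak and the Tsc22d3 region 1240 bp, and those of Faxc, Gbp4 and Cecr2 were at least 28460 bp away.

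Nearest genes were counted over the 21886 genes of the annotation, each region going to the gene it overlapped or, failing that, to the nearest within 50 kb. A KI-alone region was assigned to 5946 genes (27.2%). Of these, 3503 (16% of all genes) had 1 or more above the median and 2443 (11.2%) had lower ones alone. Genes with a gene-end region in all 3 lists had a KI-alone region in 27.8% of cases and other genes in 26.8%. The count followed gene length, since 52% of the longest class of genes (57.1 kb and more) and 9.91% of the shortest (4.17 kb and less) had one. The median length was 36.4 kb for genes with a KI-alone region and 17.2 kb for all genes.

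Most of these genes had a single KI-alone region (4227), whereas 1719 had 2 or more and 86 had 5 or more. Pde4d, a cyclic AMP phosphodiesterase gene of 1300 kb, had the most, 12 of its 25 KI regions, with scores between 52.23 and 128.75. Tns1, which encodes a focal adhesion protein, followed with 9 of 11. Arid1b, a subunit gene of the BAF chromatin remodelling complex, had 8 of 12, Arid5b 8 of 9, Sgms1, a sphingomyelin synthase gene, 8 of 10, and the transcription factor gene Zfhx3 8 of 20. Acoxl with 7 of 9 and Frmd4a with 7 of 13 were among 7 genes that each had 7. The 8 genes named here were 187 kb or longer.

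A gene whose KI regions were all KI-alone was uncommon. Among 2916 genes with 3 or more KI regions, 78 (2.67%) had none that KO or WT shared. Among genes of the lists described next, 8 of 212 did: Dntt, Irf8, Itga9, Itgb3, Mafg, Pdgfra, Rasgrp1 and Tcf7. For Irf8, Mafg, Pdgfra and Tcf7 the KO and WT lists had no region of their own either. Irf8 and Tcf7 encode transcription factors of monocytes and dendritic cells and of T cells, Mafg a small Maf factor and Pdgfra a receptor of mesenchymal cells.

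Function was described with 22 gene lists of cell type markers and pathways, 691 genes in all. A KI-alone region was assigned to 323 of them (46.7%, against 27.2% of all genes) and an above-median one to 221. Counts of genes favour lists of long genes, so the share of KI-alone regions among each list's own KI regions was given beside them. That share was 34.4% over all KI regions. It was higher, with an interval that leaves out 34.4%, for mast cell, basophil and eosinophil markers (14 of 22 regions, 63.6%, 43.0 to 80.3), endothelial and stromal markers (23 of 42, 54.8%, 39.9 to 68.8), T and NK markers (19 of 38, 50%, 34.8 to 65.2) and intracellular signalling genes (82 of 176, 46.6%, 39.4 to 54.0). Most KI regions of those lists lay away from gene ends (18, 35, 30 and 129 regions in the same order). Away from gene ends, where 46.8% of all KI regions were KI-alone, the intervals of all 22 lists took in 46.8%. Signalling genes had 55.0% (46.4 to 63.4) there. At equal list size their share was 37.3%, against 24.7% of all such KI regions, and with a score of at least 75 in every list it was 62.1%, against 47.4%, and in both settings the interval left out the share of all KI regions. With a score of at least 75 the same held for B lymphoid (76.9%) and dendritic cell markers (73.3%), on 13 and 15 regions, whose shares on the whole lists were 48.4% and 34.4%.

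**Figure D3:**
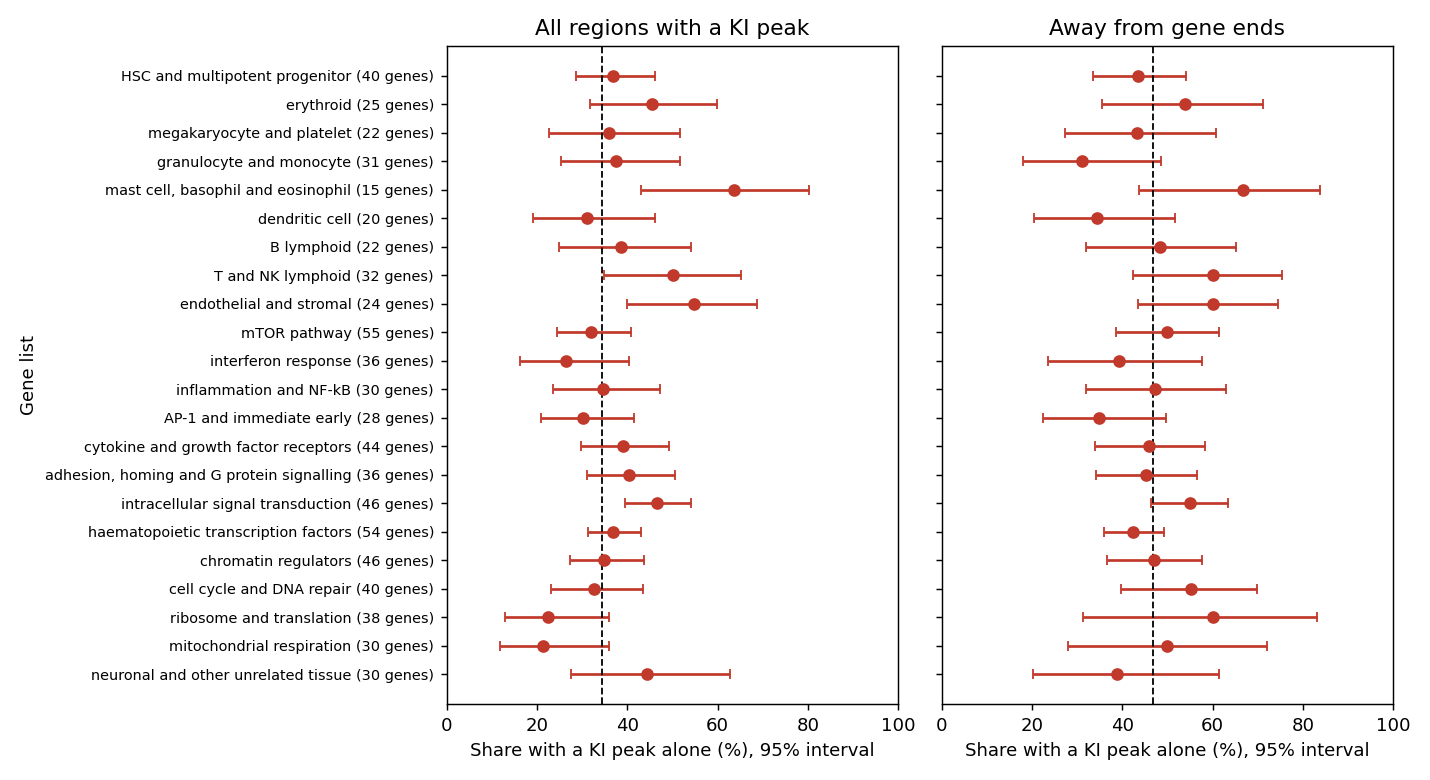
Percentage of KI regions that were KI-alone, for the genes of each of 22 lists, with 95% Wilson intervals, over all KI regions of the list (left panel) and over those away from gene ends (right panel). The dashed lines mark 34.4% (left) and 46.8% (right) over all genes, and the line lies inside every interval in the right panel and outside 4 in the left.

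Stem cell and lineage markers were examined first. Here and for the pathway lists, the share of a list's genes with a KI-alone region stands against 27.2% of all genes. Such gene shares favour long genes. By share of KI regions, the lists not named above as higher had intervals that took in 34.4%. The labelled cell type had its markers open, with a gene-end peak in all 3 lists at Kit, Meis1, Hlf, Mecom and the pan-leukocyte gene Ptprc. Cd34 had one in KI and WT and none in KO, Procr in WT alone, and Ly6a, Gata2, Slamf1 and Cd48 had none in any list. The 40 HSC and multipotent progenitor markers had 114 KI regions, of which 42 (36.8%, 28.6 to 46) were KI-alone. Of these markers, 23 (57.5%) had a KI-alone region, 13 of them above the median. The strongest were in Flt3 (122.99), the receptor of multipotent progenitors, and 6790 bp from Angpt1 (106.1), a ligand of the Tie2 receptor. Next came the regions 4767 bp from Slamf1 (90.16), which encodes CD150, and 33942 bp from Cd34 (88.9). Meis1 (62.56) and Prdm16 (60.12), transcription factors of stem cell maintenance, had lower regions alone, Meis1 in 3 of its 8 KI regions.

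Markers of differentiated blood lineages had KI-alone regions as well. The 25 erythroid markers had 44 KI regions, of which 20 (45.5%, 31.7 to 59.9) were KI-alone. Of these markers 14 (56%) had a KI-alone region and 9 an above-median one. Besides Klf1, these included the region 10101 bp from Aqp1 (95.17), which encodes a water channel of the red cell membrane. Gata1 (62.56) and Car2 (62.6) had a lower one each. Among 31 granulocyte and monocyte markers 14 (45.2%) had one, led by Mmp8 and by Itgam (113.37), which encodes CD11b. These markers had 48 KI regions, of which 18 (37.5%, 25.2 to 51.6) were KI-alone. Both KI regions of Itgam were KI-alone, and the KO and WT lists each had 1 region assigned to that gene. Next were a region 20765 bp from Irf8 (94.81) and one at an end of the Fc receptor gene Fcgr1 (94.72). Spi1 (62.39), the gene of PU.1, and the alarmin gene S100a8 (59.61) had lower regions alone.

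Of 22 megakaryocyte and platelet markers 6 (27.3%) had a KI-alone region, close to the share of all genes (27.2%). The strongest lay in Nbeal2 (122.77), which alpha granules require, and at the start of Gp1ba (107.48), a chain of the von Willebrand factor receptor. Of 20 dendritic cell markers 8 (40%) had one, among them Cd80 (113.41) and Cd86 (97.64), costimulatory ligands. Of 22 B lymphoid markers 8 (36.4%) had one, led by the adaptor gene Blnk (85.71). Of 32 T and NK markers 12 (37.5%) had one. The strongest of these were in the transcription factor gene Tbx21 (100.35) and 34970 bp from another, Tcf7 (84.23). Mast cell, basophil and eosinophil markers had one in 10 of 15 genes (66.7%). However, 7 of these had lower regions alone, such as that near the protease gene Mcpt4 (64.2). In 24 endothelial and stromal markers 9 (37.5%) had one, led by Pdgfrb (104.35) and Kdr (90.7), growth factor receptor genes. A list of 30 genes of neurons and other unrelated tissues, included for reference, had one in 9 genes (30%), led by the myelin gene Mbp (89.44). Of the KI regions of that list, 44.4% (27.6 to 62.7) were KI-alone.

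Of 55 mTOR pathway genes 21 (38.2%) had a KI-alone region, 18 of them above the median. The strongest spanned the start of Tsc2 and the neighbouring Nthl1 (147.61, chr17:24632310-24632914). Tsc2 encodes the GTPase-activating subunit of the complex that restrains mTORC1, and Nthl1 a DNA glycosylase. Both KI regions of Tsc2 were KI-alone, but the WT list had 1 region assigned to Tsc2 as well, at another place, and the KO list had none. Others lay 7743 bp from the translation initiation factor gene Eif4b (116.7) and at the start of Telo2 (113.01), whose product assembles mTOR and related kinases. Another lay at an annotated start inside Prr5 (97.13), a gene of mTORC2. Tfeb (62.35), the lysosomal transcription factor controlled by mTORC1, and Pik3cb (59.16) had lower ones alone. Mtor itself had no KI-alone region. It had a gene-end peak in KI, none in KO and one in WT. Over the list 32.0% (24.4 to 40.7) of KI regions were KI-alone.

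Signalling genes were the list most often reached. Of 46 intracellular signalling genes, with a median length of 69.0 kb, 37 (80.4%) had a KI-alone region and 33 an above-median one. These included Ptpn6 (132.01), which encodes the phosphatase SHP-1, Map3k1 (118.51), a kinase gene with 4 of its 5 KI regions KI-alone, Rasa2 (116.15), a Ras GTPase-activating protein gene, and Prkca (108.53), a protein kinase C gene. The 44 cytokine and growth factor receptor genes had 92 KI regions, of which 36 (39.1%, 29.8 to 49.3) were KI-alone. Of these genes 26 (59.1%) had a KI-alone region. They were led by regions at the start of Bmpr1a (147.92, chr14:34502250-34503412), a BMP receptor, and at an end of Il10rb (144.36, chr16:91406090-91407181), a receptor chain for interleukin 10, which also lay within 1 kb of an end of Ifnar2. Tnfrsf1b (128.18), a receptor for tumour necrosis factor, followed. The adhesion, homing and G protein list had one in 24 of 36 genes (66.7%). It had 94 KI regions, of which 38 (40.4%, 31.1 to 50.5) were KI-alone. It was led by Itga9 (115.13) and Jam2 (110.45), which encode an integrin and a junctional adhesion molecule. A KI-alone region was assigned to 8 of 36 interferon response genes (22.2%, below the share of all genes) and to 15 of 30 inflammation and NF-kB genes (50%). Gbp2 (94.06) and Ddx58 (76.32), the gene of the RNA sensor RIG-I, led the interferon list. Regions 2373 bp from Nfkb1 (94.05) and 28074 bp from Ccl2 (89.72) led the inflammation list. Mx1, whose promoter drives the Cre, had no KI-alone region, and a gene-end peak in KI and KO and none in WT. KI and KO mice carried the Cre and WT mice did not. Whether the Mx1 promoter of the Cre added reads to this peak was not tested.

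Of 54 haematopoietic transcription factor genes, with a median length of 69.4 kb, 40 (74.1%) had a KI-alone region, 27 above the median. They held 92 such regions, the most of any list, but that list also had the most KI regions. Of its KI regions 36.9% (31.2 to 43.1) were KI-alone, close to the 34.4% over all KI regions. Maf (144.27, chr8:115706748-115708263) had its single KI region at a gene end, 79895 bp from the nearest KO or WT peak. Regions 3244 bp from Nfatc2 (133.75), in the body of Nfia (110.75) and 33308 bp from Cebpb (100.48) followed. The 46 chromatin regulator genes had 126 KI regions, of which 44 (34.9%, 27.2 to 43.6) were KI-alone. Of these genes 26 (56.5%) had a KI-alone region and 24 an above-median one. The strongest lay in the body of Dnmt3a (157.91, chr12:3834391-3835269), the de novo DNA methyltransferase gene that is mutated in clonal haematopoiesis. Next were regions 5916 bp from Smarca4 (97.96), in the body of Jarid2 (97.51) and 48618 bp from Chd7 (96.67). The AP-1 and immediate early list had one in 13 of 28 genes (46.4%). The strongest were at an annotated start inside Mafg (149.51), 45714 bp from Ier5 (110.44) and at an end of Fosb (104.19). Cell cycle and DNA repair genes had one in 14 of 40 (35%). The strongest lay 31150 bp from Ccnd1 (126.67), the cyclin D1 gene, and at an end of Ccnb2 (112.79). In 38 ribosome and translation genes 11 (28.9%) had one, close to the share of all genes. These were led by the start regions of Ubtf (135.17), the gene of a transcription factor of RNA polymerase I, Nop58 (104.68) and Rpl10a (101.96). In 30 mitochondrial respiration genes 8 (26.7%) had one, also close to the share of all genes, led by a region 4991 bp from Opa1 (84.93).

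KI-alone regions that reached a promoter were set against the other promoters by sequence. The table held 17491 genes of the set with a 300 bp window around the start, none of them on chromosome 18, and KI-alone regions overlapped 683 of these. Their median GC content was 60.3% and their median CpG observed to expected ratio 0.69. The ratio was 0.816 at the 7109 promoters with a region of all 3 lists, 0.223 at the 8232 promoters without a region and 0.565 over all genes. At promoters of KO-alone regions (153) it was 0.629 and of WT-alone regions (145) 0.607. KI-alone promoters were thus CpG-rich, below promoters open in every list.

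**Figure D4:**
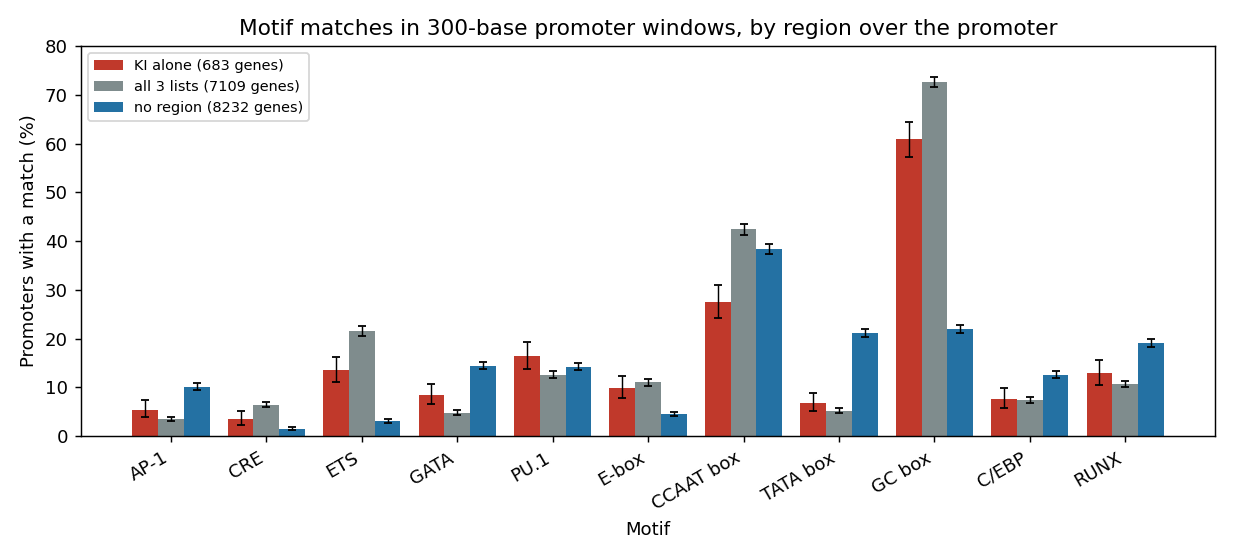
Percentage of promoters with each of 11 motifs, for promoters overlapped by a KI-alone region, by a region of all 3 lists, and by no region, with 95% Wilson intervals. The GC box was in 60.9%, 72.6% and 22% of them in that order, and CCAAT in 27.5%, 42.4% and 38.4%.

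Each motif was searched by its letters on both strands. The GC box bound by SP factors was spelled GGGCGG and the box bound by NF-Y was spelled CCAAT. The letters for ETS factors were CCGGAAG and those for PU.1, an ETS factor of myeloid cells, were GAGGAAG. The letters of the cyclic AMP response element (CRE) were TGACGTC and those of GATA factors were AGATAA. The TATA box was searched as TATAAA and the RUNX motif as TGTGGT. The AP-1 motif was searched as TGANTCA and the E-box as CACGTG, and both are palindromes that match on both strands at once. The C/EBP motif was searched as TTGCNNAA. The ETS and PU.1 letters share their last bases and cannot both match at the same place, and the C/EBP and NF-Y letters can overlap. The GC box was in 60.9% (57.2 to 64.5) of KI-alone promoters, against 72.6% (71.5 to 73.6) with a region of all 3 lists and 45.9% of all promoters. CCGGAAG was in 13.5% (11.1 to 16.2), against 21.5% (20.6 to 22.5) with all 3 lists and 11.8% of all promoters. In KO-alone promoters the GC box was in 56.2% (48.3 to 63.8) and CCGGAAG in 9.15% (5.53 to 14.8). In WT-alone promoters they were in 53.1% (45 to 61) and 11.7% (7.45 to 18). CCAAT was in 27.5% (24.3 to 31.0) of KI-alone promoters, against 42.4% (41.2 to 43.5) with all 3 lists, 38.4% (37.4 to 39.5) without a region and 39.0% of all promoters. Among other promoters open in some lists and not in all, the share was 27.6% (24.0 to 31.4) with KI and WT peaks, 31.4% (27.6 to 35.5) with KI and KO peaks and 28.3% (21.6 to 36.1) with a WT peak alone. With a KO peak alone it was 33.3% (26.4 to 41.1), an interval that takes in the shares of all promoters and of those without a region.

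GATA letters were in 8.49% (6.63 to 10.8) of KI-alone promoters, against 4.77% (4.3 to 5.29) with all 3 lists and 9.86% of all promoters. PU.1 letters were in 16.4% (13.8 to 19.4), against 12.6% (11.9 to 13.4) with all 3 lists and 13.5% of all promoters. TATA letters were in 6.73% (5.09 to 8.87), against 5.22% (4.73 to 5.76) with all 3 lists and 13.3% of all promoters. In KO-alone promoters the shares were 9.8% (6.03 to 15.5) for GATA, 19.6% (14.1 to 26.6) for PU.1 and 11.8% (7.57 to 17.8) for TATA letters. In WT-alone promoters they were 4.83% (2.36 to 9.63), 14.5% (9.67 to 21.1) and 8.97% (5.31 to 14.7) in the same order. For AP-1 the share was 5.42% in KI-alone promoters and 7.05% in all promoters. For CRE it was 3.51% and 3.82%, for the E-box 9.96% and 7.75%, for C/EBP 7.61% and 10.2%, and for RUNX 12.9% and 15.3%. The shares above and below the score median had overlapping intervals for the GC box (62.5%, 57.9 to 66.9, and 58.0%, 51.7 to 64.1) and for CCAAT (25.2%, 21.4 to 29.5, and 31.7%, 26.2 to 37.8). CRE letters were in 4.77% (3.14 to 7.19) above the median and 1.23% (0.421 to 3.57) below it, where they rest on 3 promoters.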

How the data were processed

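Per library there was 1 peak list of 5 columns, whose last column is a score that the authors deposited. It was read as −log10 of the p-value times 10, as MACS prints it, and its lowest value in the KI list was 50. The submitters' processing notes name the build mm10 and the tool CASAVA. The sources used here do not give the aligner, the MACS version, duplicate handling, read shifting, controls or read depth. A deeper library gives more weak peaks at the same threshold.

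Peaks were merged with bedtools 2.31.1 (gap 0 bp). Genes (21886, of which 3 list genes are not protein coding) and promoters came from RefSeq tables of GRCm38.p6, which give no strand for gene ends. A region went to the genes it overlapped, or to the nearest within 50 kb. Intervals are Wilson 95% intervals for counting error alone. The steps were tested on simulated peak lists. The regions, lists and rules were chosen with earlier results of these data known. Named genes are the 15 highest-scoring regions at gene ends, the 10 highest-scoring others, 8 genes with the most regions (among ties at 7, the first by name), those around the score median, up to 4 above-median and 2 lower genes per list, Mtor and Mx1. The 8 list genes with every KI region KI-alone, the miRNAs and the gene families were chosen after their values were seen. Some genes that this rule names are not reported here. Alternatives are in the closing section.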

Additional observations from a re-analysis of the deposited data

How the results depend on the processing

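Depth is unknown and there was 1 library per genotype, so why the KI list is longer was not tested. The 9597 regions became 2606 at equal list size, 5718 with a score of at least 75 in every list and 756 with a KI score of at least 100. Their gene-end share of 15.6% became 13.9% when regions within 500 bp were merged, 13.9% with no KO or WT peak within 1 kb, 20% at equal list size, 24.7% with a score of at least 75 in every list and 24.6% with a KI score of at least 100. It became 12.2% and 21.9% with gene ends of 500 and 2500 bp, and 14.4% by midpoint, a setting added after seeing the data. At equal list size and with a KI score of at least 100, nearest genes numbered 2103 and 681 instead of 5946, and list genes 133 and 39 instead of 323. Split at the KI list median, 1077 regions instead of 4794 stood above, with a gene-end share of 23.1% instead of 17.2%. With KO and WT peaks of at least 75, 8.05% instead of 16.9% had one within 5 kb. For regions within 1 kb of a start, 56% instead of 60.9% of promoters held a GC box. Away from gene ends, the KI-alone share of all KI regions was 46.8%, and became 24.7% at equal list size, 47.4% with a score of at least 75 and 10.7% with a KI score of at least 100. The intervals of 21, 19 and 22 of the 22 lists took in that share in these 3 settings. No paired analysis was possible because each genotype had 1 ATAC-seq library and no result came from a test.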

Other observations

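Of 963 annotated miRNA hairpins, 15 lay within 500 bp of a KI-alone region. Hairpins near other classes of region were not counted, so whether that number is high or low is not known. The strongest KI-alone regions near a hairpin were in Pde4d near Mir1904 (128.75, 490 bp away), in Nfic near Mir1191b (110.77, 190 bp away) and beside Mir92b (84.52, 60 bp away). The mature sequences of these hairpins, from RefSeq on GRCm38.p6, are shown with the seed (bases 2 to 8) in capitals.
mmu-miR-1904: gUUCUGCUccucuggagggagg
mmu-miR-1191b-3p: aGACUCACuauguagcccaagc
mmu-miR-1191b-5p: uCAGGCUAcagagcgagaaccu
mmu-miR-92b-3p: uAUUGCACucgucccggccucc
mmu-miR-92b-5p: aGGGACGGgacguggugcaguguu
The seed of miR-92b-3p is shared by 5 other mature mouse miRNAs of the table, among them miR-25-3p and miR-92a-3p, and the other 4 seeds by none. The other 3 hairpins with above-median regions were Mir203, 283 bp from a region of score 69.93, Mir6936, overlapped by one of 69.84 at Mafg and Sirt7, and Mir8105, overlapped by one of 68.23 at Smarcc2.

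Gene families taken by their symbols differed in how often they had a KI-alone region, and the short families had few. It was assigned to 32 of 1110 olfactory receptor genes (2.88%), 7 of 355 vomeronasal receptor genes (1.97%), 6 of 112 keratin genes (5.36%) and 12 of 72 ribosomal protein genes (16.7%), whose median lengths were 0.95, 0.963, 1.77 and 3.15 kb. Zinc finger genes named Zfp (99 of 397, 24.9%, median 18 kb) and solute carrier genes (131 of 375, 34.9%, 28.7 kb) lay nearer to the 27.2% of all genes. It was assigned to 14 of 26 phosphodiesterase genes (53.8%, 106 kb) and to 6 of 11 Dock genes (54.5%, 258 kb). As a share of each family's own KI regions the order differed. It was highest among these families for olfactory receptors (33 of 63 regions, 52.4%), then 40.4% for phosphodiesterases, 37.5% for keratin genes and for Dock genes, 35% for vomeronasal receptors, 32.9% for solute carriers, 23.2% for Zfp genes and 15.6% for ribosomal protein genes, against 34.4% over all KI regions.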
